A study of Chlorocebus aethiops with 12 samples.

Results

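The Kruppel-like factors are zinc-finger transcription factors that bind GC-rich and CACCC sequences in promoters and enhancers. Some activate and others repress, and the repressors of one branch, KLF9, KLF10, KLF11 and KLF13, recruit the SIN3A co-repressor. KLF9 and KLF15 are known as target genes of the glucocorticoid receptor, the hormone-activated transcription factor, in several tissues. The 10 members described here, KLF2, KLF3, KLF4, KLF5, KLF6, KLF9, KLF10, KLF11, KLF13 and KLF15, were taken by their RefSeq record on the array, 1 record each, out of 20037 records tested. The records are NM_016270 for KLF2, NM_016531 for KLF3, NM_004235 for KLF4, NM_001730 for KLF5, NM_001300 for KLF6, NM_001206 for KLF9, NM_005655 for KLF10, NM_003597 for KLF11, NM_015995 for KLF13 and NM_014079 for KLF15. They had 19 of the array's 41000 distinct probes.

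Transcripts were measured in COS-1 cells, a fibroblast-like kidney line of the African green monkey, transiently transfected with mouse CCRP carrying a V5 tag (mCCRP-V5, a co-chaperone of nuclear receptors) and human glucocorticoid receptor carrying a FLAG tag (FLAG-hGR). All groups carried both plasmids by their descriptions, while another label lists only mCCRP-V5 for Y30F samples and only FLAG-hGR for Y30E samples. The receptor's tyrosine was replaced by phenylalanine in Y30F and by glutamate in Y30E, and no group carried the unmutated receptor. By the descriptions, no group went without a transfected receptor either, so effects with a receptor are not set against cells without it. At 40 h after transfection a 6 h exposure began, to dexamethasone (a synthetic glucocorticoid) at 100 nM or to 0.1% DMSO. No DMSO content is recorded for the dexamethasone arrays. This gave the groups Y30F-DMSO, Y30F-DEX, Y30E-DMSO and Y30E-DEX with 3 arrays each. The labels do not say whether the 3 were separate cultures, so the p-values reflect array-to-array spread that may be purely technical. The question for each member was whether dexamethasone changed it with either receptor and whether the receptors differed.

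On the 12 arrays between 60.5% and 67.0% of spots were well above background, and no such spot was saturated. The number of arrays limits the precision. The arrays came on 3 slides of 4. All Y30F-DMSO arrays shared slide 1 with Y30F-DEX replicate 1. The other Y30F-DEX arrays shared slide 2 with Y30E-DMSO replicates 1 and 2, and the remaining 4 arrays were on slide 3. Within a slide, each comparison of dexamethasone with DMSO therefore rests on 1 array on one side. The RNA is from a monkey and the probes are human, so no gene's level is set against another's. Brightness served only to choose the probe used for each record. In such bulk samples, fewer cells with a transcript and less transcript per cell cannot be told apart.

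Signals are given as the processed brightness of the spot scaled to each array's 75th percentile (normalised signal), and differences as log2 with limma's standard error (SE). A record is called changed at a Benjamini-Hochberg adjusted p under 0.05 over all 20037 records. Of the 19 probes, 16 were well above background on all 12 arrays, so each member had at least 1 measured probe, and the brightest one is used where no probe is named. No member's value was missing on any array.

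KLF9 rose under dexamethasone with both receptors, and no other member was called with either receptor alone in the main processing. KLF9, known as BTEB1, is a repressor that binds basic transcription elements and is known for roles in hormone responses of brain, skin and lung. Its normalised signal was 303, 305 and 321 in Y30F-DMSO and 514, 581 and 525 in Y30F-DEX. In Y30E-DMSO it was 351, 369 and 365, and in Y30E-DEX it was 545, 592 and 578. Every dexamethasone array was above every DMSO array, with either receptor.

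**Figure D1:**
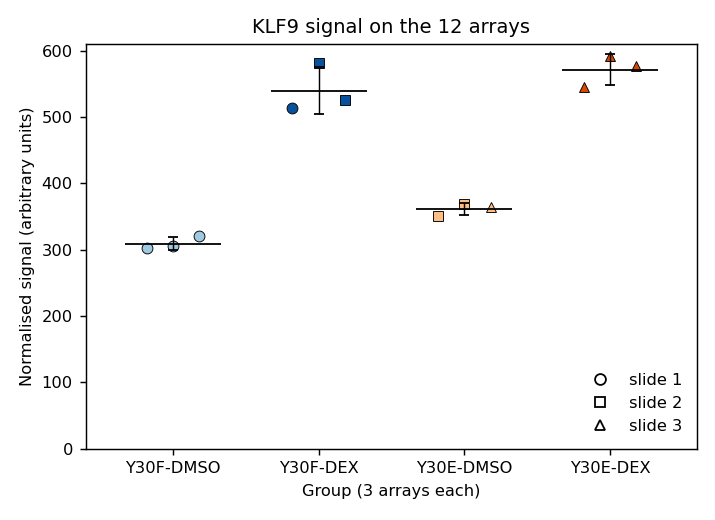
KLF9 normalised signal (vertical axis, arbitrary units, from 0) on the 12 arrays by group, with a marker shape for each slide, a line at the mean and bars of 1 SD over 3 arrays. The 6 DMSO arrays lie between 303 and 369 and the 6 dexamethasone arrays between 514 and 592.

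With the Y30F receptor KLF9 rose 1.74-fold, by 0.80 ± 0.06 (log2, SE, n = 3 against 3, limma adjusted p = 7.96e-05). With the Y30E receptor KLF9 rose 1.58-fold, by 0.66 ± 0.06 (log2, SE, n = 3 against 3, limma adjusted p = 2.86e-04). Averaged over both receptors the rise was 1.66-fold, with a 95% interval from 1.56-fold to 1.77-fold (limma adjusted p = 4.92e-06). By size KLF9 stood at rank 101 from the top among the 20037 averaged effects, and by p-value at rank 20. So other records rose further, while the 3 arrays of each KLF9 group lay close together, with SDs of 0.04 to 0.09 (log2).

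The KLF9 rise was measured within single slides at nearly the same size. On slide 1 alone, with 1 Y30F-DEX array against 3 Y30F-DMSO arrays, the KLF9 difference was 0.73 ± 0.10 (log2, SE), and on slide 3 alone, with 3 Y30E-DEX arrays against 1, it was 0.65 ± 0.09. Neither passed the test in these small fits (limma adjusted p = 0.186 and 0.121). A fit of all arrays with slide as a fixed block rests on the same arrays for each difference and gave the same 0.73 and 0.65. There the spread also came from the other groups, the lone array being assumed to vary like them, and KLF9 passed with both receptors (limma adjusted p = 0.00995 and 0.0122).

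One member of 10 was thus called with the Y30F receptor, where 1.82% of all records were (365 of 20037, with 1.43% higher). One of 10, the same gene, was called with the Y30E receptor, where 2.11% of all records were (423 of 20037, with 1.49% higher). KLF9 was thereby among the 0.928% of records called higher with both receptors. These comparisons share no array, but they share slide 2 and the same estimate of the spread, so the calls are not independent. An unadjusted p under 0.05 was found for 5 of 10 members with Y30F and 4 of 10 with Y30E, beside 13.4% and 14.3% of all records. The members' median difference was 0.0063 (log2) with Y30F and 0.0043 with Y30E, beside medians of 0.020 and -5.3e-04 over all records. The members' medians thus lay near 0 with both receptors. The members were chosen with earlier results of these data known. Their shares, here and below, thus cannot show whether the family responded more often than other records.

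**Figure D2:**
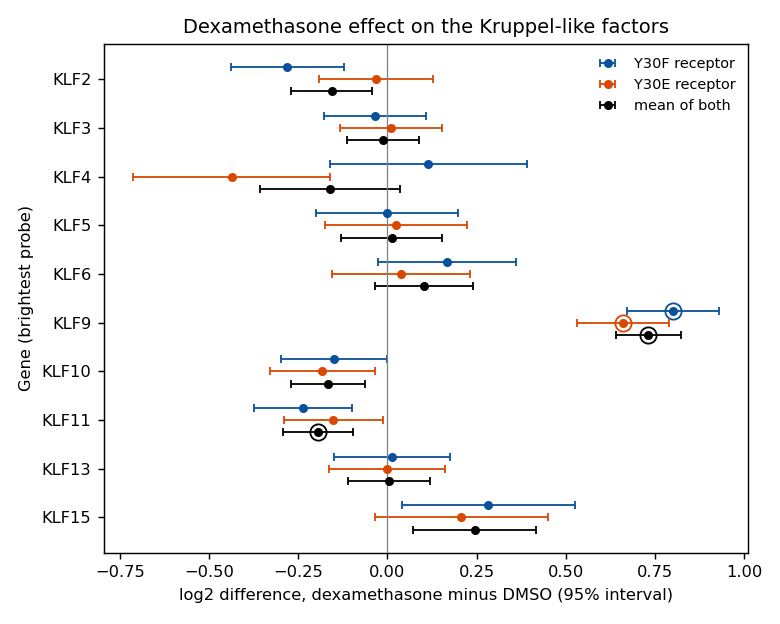
Dexamethasone effect on each of the 10 members (log2 difference, dexamethasone minus DMSO, with 95% intervals) with the Y30F receptor, with the Y30E receptor and averaged over both. Rings mark called effects. KLF9 lies at 0.80, 0.66 and 0.73 with rings on all 3, and KLF11 has a ring at -0.19 on the averaged effect alone.

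The other SIN3A-recruiting repressors did not go with KLF9. KLF10 and KLF11, known as TGF-beta-inducible early genes, had lower signals under dexamethasone with both receptors, by 1.1-fold to 1.2-fold. Neither was called with either receptor alone in the main processing. Averaged over both, KLF11 was called and KLF10 was not. KLF13, known as an activator of CCL5 in T cells as well as a repressor, had differences close to 0.

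KLF11 had normalised signals of 542, 506 and 570 in Y30F-DMSO and 470, 446 and 456 in Y30F-DEX. With the Y30E receptor KLF11 had 538, 486 and 558 under DMSO and 482, 476 and 464 under dexamethasone. The 3 dexamethasone arrays lay below all 3 DMSO arrays with each receptor. The difference was -0.24 ± 0.06 with Y30F and -0.15 ± 0.06 with Y30E (log2, SE, n = 3 against 3, limma adjusted p = 0.113 and 0.308).

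Averaged over both receptors, KLF11 fell by 0.19 ± 0.04 (log2, SE, limma adjusted p = 0.0376). KLF9 and KLF11 made 2 of 10 members called there, beside 3.77% of all records (755 of 20037, with 2.7% higher and 1.06% lower). At an unadjusted p under 0.05 the counts were 5 of 10 members and 14.1% of records. The KLF11 call was lost in 10 of 12 fits that left out 1 array and kept without Y30F-DMSO replicate 2 or Y30E-DMSO replicate 2, with adjusted p from 0.019 to 0.106. It was also lost with slide as a fixed block, at -0.22 (adjusted p = 0.172), and kept with slide as a random block (adjusted p = 0.0382). The random block used an estimated correlation within slides of 0.032, so that fit was close to the main one. In the averaged comparison slide 1 held 3 DMSO arrays and 1 dexamethasone array, and slide 3 the reverse. A second KLF11 probe gave -0.22 ± 0.07 for the averaged effect (log2, SE, limma adjusted p = 0.137 with every probe as its own feature, where 3.57% were called).

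KLF10 had signals of 530, 450 and 490 in Y30F-DMSO and 450, 429 and 443 in Y30F-DEX. With the Y30E receptor KLF10 had 490, 452 and 510 under DMSO and 419, 439 and 420 under dexamethasone. Here too the groups did not overlap, though with Y30F the highest dexamethasone array, at 449.5, was just under the lowest DMSO array, at 449.7. The averaged KLF10 difference was -0.17 ± 0.05 (log2, SE, limma adjusted p = 0.097), and it was called without Y30F-DMSO replicate 2 (adjusted p = 0.0346).

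Non-overlapping groups are common on these arrays. With Y30F 5 of 10 members had them (KLF2, KLF9, KLF10, KLF11 and KLF15), beside 15.4% of records, and with Y30E 4 of 10 did (KLF4, KLF9, KLF10 and KLF11), beside 22.6%. KLF9, KLF10 and KLF11 had dexamethasone groups apart from DMSO in the same direction with both receptors, 3 of 10 members, and 4.96% of the 20000 records measured on every array did. By direction, 3.38% of records were higher with both and 1.58% were lower with both.

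KLF13 had normalised signals from 4741 to 5651 in Y30F-DMSO and from 5056 to 5552 in Y30F-DEX. In Y30E-DMSO they ran from 5265 to 5564 and in Y30E-DEX from 5151 to 5721, so the groups overlapped. The KLF13 differences were 0.013 with Y30F and -0.0017 with Y30E, and their 95% intervals lay within 1.25-fold either way. A second KLF13 probe gave -0.03 ± 0.05 and -0.04 ± 0.05 (log2, SE).

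KLF15, which is known for inducing gluconeogenic and amino acid catabolic genes, was not called in any comparison of the main processing. Its normalised signal was 56.2, 64.2 and 66.3 in Y30F-DMSO and 73.0, 68.3 and 86.3 in Y30F-DEX, groups that did not overlap. In Y30E-DMSO KLF15 had 70.0, 65.6 and 71.7 and in Y30E-DEX 78.2, 91.0 and 71.2, where the lowest dexamethasone array was below the highest DMSO array. The difference was 0.28 ± 0.11 with Y30F and 0.21 ± 0.11 with Y30E (log2, SE, n = 3 against 3, limma adjusted p = 0.295 and 0.425).

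Averaged over both receptors the KLF15 difference was 0.25 ± 0.08 (log2, SE, limma adjusted p = 0.146), with a 95% interval from 1.05-fold to 1.34-fold. Among the alternatives that difference was called with array weights alone, in a fit that called 1564 records. Its value was 0.14 with normexp, which adds an offset of 50 to every signal and so shrinks differences of dim probes whatever their true size. A second KLF15 probe was well above background on 2 of 12 arrays, both of the Y30F receptor, and was not tested.

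**Figure D3:**
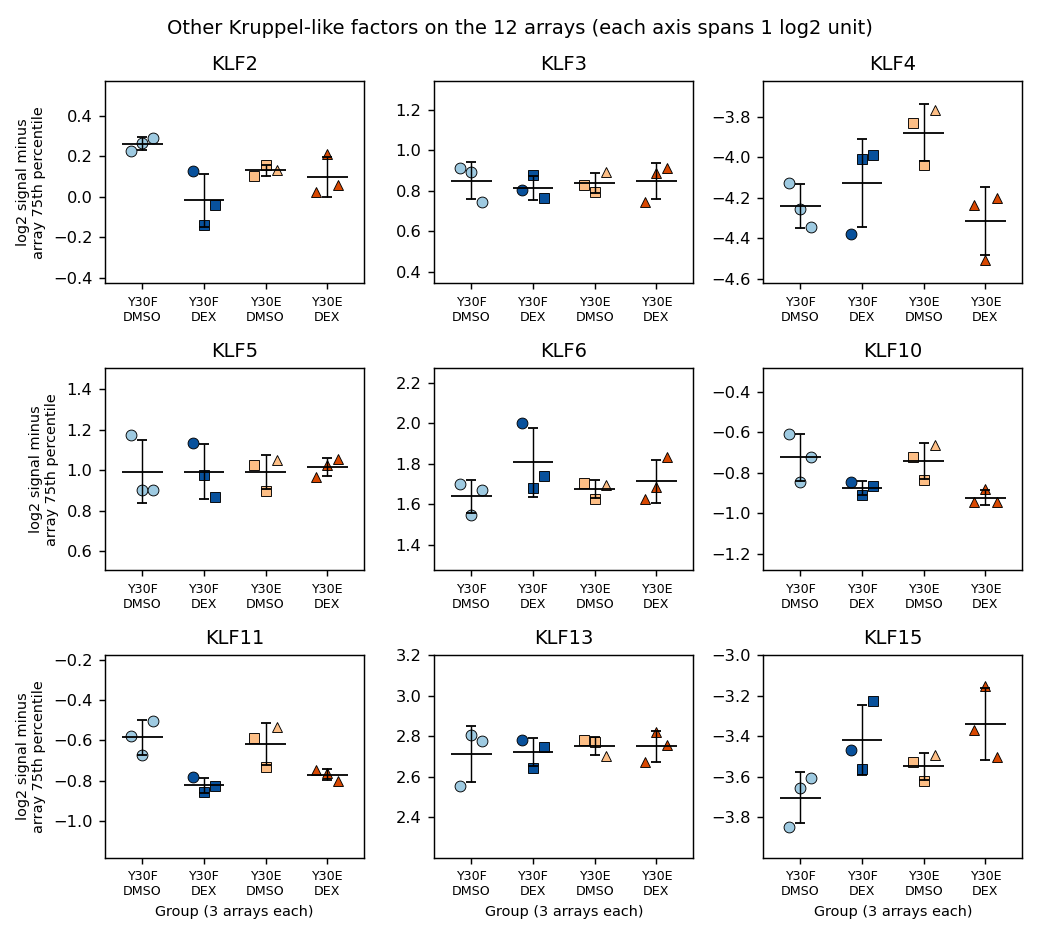
Log2 signal minus the array's 75th percentile for the 9 members other than KLF9 on the 12 arrays, by group, with marker shapes for slides (circles slide 1, squares slide 2, triangles slide 3), a line at the mean and bars of 1 SD over 3 arrays. Each vertical axis spans 1 log2 unit, and in the KLF10 and KLF11 panels the dexamethasone arrays lie below the DMSO arrays of the same receptor.

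The activators KLF2, KLF4, KLF5 and KLF6 were not called in any comparison of the main processing. KLF2, known for keeping endothelium and naive T cells quiescent, had normalised signals of 946, 972 and 989 in Y30F-DMSO and 881, 734 and 785 in Y30F-DEX, which did not overlap. With Y30E KLF2 had 867, 902 and 885 under DMSO and 821, 936 and 842 under dexamethasone, which did. The difference was -0.28 ± 0.07 with Y30F (log2, SE, limma adjusted p = 0.102) and -0.03 ± 0.07 with Y30E (limma adjusted p = 0.887).

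The KLF2 value with Y30F differed by slide and by probe. The Y30F-DEX array on slide 1 was the highest of its group, and with slide as a block the difference was -0.14 (adjusted p = 0.703). Without that array, replicate 1, it was -0.35 and passed (limma adjusted p = 0.0162, in a fit that called 1367 records), as did the averaged KLF2 effect (-0.19, adjusted p = 0.0483). The second KLF2 probe went the other way. It had 42.7, 53.0 and 42.0 in Y30F-DMSO and 54.4, 82.5 and 67.8 in Y30F-DEX, a difference of 0.56 ± 0.23 (log2, SE, limma adjusted p = 0.340 with every probe as its own feature). So the probes of KLF2 had non-overlapping groups in opposite directions.

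KLF4, a factor of epithelial differentiation and of reprogramming to pluripotency, was measured by a single probe. Its normalised signal was 46.3, 42.3 and 39.8 in Y30F-DMSO and 38.8, 50.1 and 50.8 in Y30F-DEX. In Y30E-DMSO KLF4 had 56.7, 49.2 and 59.3, above all Y30E-DEX arrays at 42.9, 35.5 and 43.8. The difference was 0.11 ± 0.12 with Y30F and -0.44 ± 0.12 with Y30E (log2, SE, n = 3 against 3, limma adjusted p = 0.753 and 0.137).

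For KLF4 the Y30F-DEX array of slide 1 was below all Y30F-DMSO arrays and the pair on slide 2 was above them. With slide as a block the KLF4 difference was -0.14 with Y30F and -0.55 with Y30E, below 0 with both (adjusted p = 0.821 and 0.180). With quantile normalization and with median centring the Y30F value was also below 0, at -0.072 and -0.013. Its direction with the Y30F receptor therefore depended on the slide and the scaling.

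KLF5, known for proliferation of epithelial and smooth muscle cells, ranged from 1473 to 1821 over all 12 arrays, with all groups overlapping. Its averaged difference was 0.012 ± 0.063 (log2, SE), and a second KLF5 probe gave -0.03 ± 0.05. KLF6, first described as a factor that binds a core promoter element, had 2361 to 2624 in Y30F-DMSO and 2592 to 3232 in Y30F-DEX. In Y30E-DMSO KLF6 ran from 2497 to 2636 and in Y30E-DEX from 2492 to 2876. Its highest value was the Y30F-DEX array on slide 1. The KLF6 difference was 0.17 ± 0.09 with Y30F and 0.04 ± 0.09 with Y30E (log2, SE, limma adjusted p = 0.445 and 0.891).

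A second KLF6 probe gave 0.14 ± 0.06 with Y30F, where its groups did not overlap, and -0.05 ± 0.06 with Y30E (log2, SE). The other probes of KLF6 were not well above background on any array. KLF3, a repressor that recruits CtBP and is known from blood and fat cell development, ranged from 1353 to 1521 in Y30F-DMSO and from 1372 to 1486 in Y30F-DEX. In Y30E-DMSO KLF3 ran from 1400 to 1498 and in Y30E-DEX from 1354 to 1518. The averaged KLF3 difference was -0.01 ± 0.05 (log2, SE), with an interval within 1.25-fold either way.

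**Figure D4:**
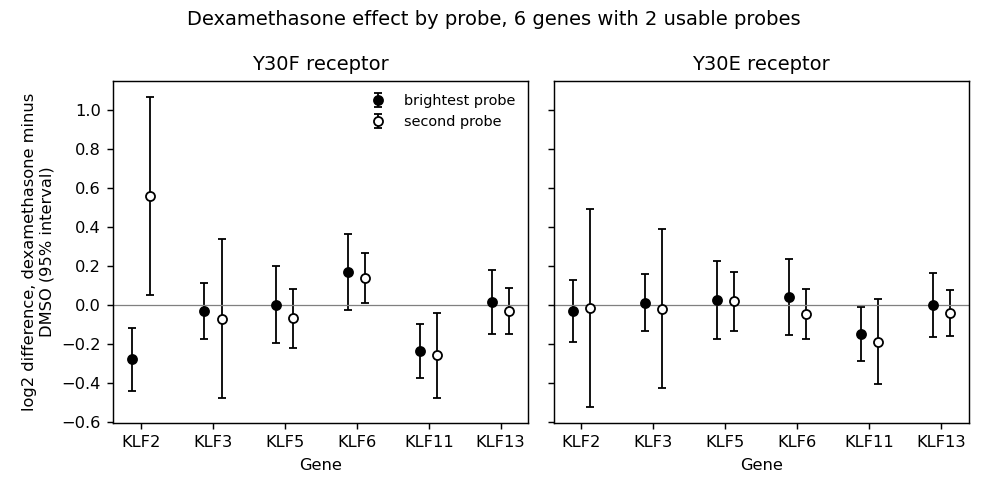
Dexamethasone effect (log2 difference with 95% interval, every probe as its own feature) by probe for the 6 members with a second probe well above background, with the Y30F receptor on the left and the Y30E receptor on the right. Filled points are the brightest probe and open points the second, and KLF2 with Y30F lies at -0.28 and 0.56 for the brightest and the second probe.

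Across these 6 members, both probes had the same direction in 3 of 6 with Y30F, in 4 of 6 with Y30E and in 3 of 6 for the averaged effect. Among those that differed with Y30F, the brightest probes of KLF5 and KLF13 were at 2.4e-05 and 0.013, each smaller than its SE. Both KLF11 probes were below 0 with Y30F, at -0.24 and -0.26, as were both KLF3 probes, at -0.03 and -0.07. Neither KLF11 probe was called there (limma adjusted p = 0.118 and 0.296 with every probe as its own feature). No second probe was called in any comparison with every probe as its own feature, where 1.65% of probes were called with Y30F and 1.98% with Y30E. KLF4, KLF9 and KLF10 had a single probe on the array, so the rise of KLF9 rests on 1 probe.

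By the brightest probe of each member and with the Y30F receptor, 9 of the 10 members, all but KLF9, had a 95% interval inside 1.5-fold in both directions, and inside 1.25-fold it held for KLF3, KLF5, KLF10 and KLF13. With Y30E it lay within 1.5-fold for 8, with KLF4 and KLF9 outside. The second KLF2 probe had an interval from 1.04-fold to 2.09-fold with Y30F. These intervals leave out offsets between slides. The direction was the same with both receptors in 7 of 10 members, beside 52.1% of all records. That count includes KLF5, whose difference with Y30F was 2.4e-05 (log2).

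Whether the receptors differed in their dexamethasone effect was tested by subtracting the effect with Y30F from that with Y30E. None of the 10 members passed (limma, 0 of 20037 records called, 0%), and 2 of 10 had an unadjusted p under 0.05, where 11.3% of all records did. For KLF9 the difference was -0.14 ± 0.08 (log2, SE, limma adjusted p = 0.574), with a 95% interval from 0.80-fold to 1.03-fold. It was 0.040 with median centring, so its direction depended on the scaling. Median centring shifted the median of all records by 0.18 in this comparison.

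The members with an unadjusted p under 0.05 for this difference were KLF2 and KLF4. KLF2 was at 0.25 ± 0.10 (log2, SE, limma adjusted p = 0.396) and KLF4 at -0.55 ± 0.18 (limma adjusted p = 0.328). With slide as a block they were at 0.10 and -0.41. Without Y30F-DEX replicate 1 the KLF4 difference was -0.68 and passed (limma adjusted p = 0.0298), in a fit where 1130 records did. For the other members the interval of the difference lay within 1.5-fold either way, and for KLF3, KLF5, KLF10, KLF11 and KLF13 within 1.25-fold.

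Under the same treatment no member was called as different between receptors. With DMSO 2 of 20037 records were called (0.00998%), and with dexamethasone 3 were (0.015%), none of them a member. At an unadjusted p under 0.05 there were 2 of 10 members under DMSO, where 13.9% of all records were, and 0 of 10 under dexamethasone, where 13.6% were. Those 2 were KLF4 at 0.36 ± 0.12 and KLF9 at 0.22 ± 0.06 (log2, SE, limma adjusted p = 0.244 and 0.172).

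The 4 KLF9 group means were thus ordered Y30F-DMSO (309), Y30E-DMSO (361), Y30F-DEX (539) and Y30E-DEX (571). The Y30E-DMSO arrays lay above the Y30F-DMSO arrays without overlap, which 14.3% of records also did. KLF4 was higher in the same way and KLF2 lower, 3 of 10 members beside 20% of records in either direction. With slide as a block the KLF4 and KLF2 differences under DMSO were -0.071 and 0.082, opposite in direction to 0.36 and -0.13 without it. That DMSO difference in KLF9 was 0.11 with slide as a block and 0.039 with median centring, which moved the median of all records by -0.18 there. No slide held both DMSO groups, so it has no value within a slide. Between the dexamethasone groups 0 of 10 members had no overlap, beside 20.5% of records, and their KLF9 difference was 0.08 ± 0.06 (log2, SE, limma adjusted p = 0.564). No slide held both dexamethasone groups either, so receptor and slide cannot be told apart there.

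**Figure D5:**
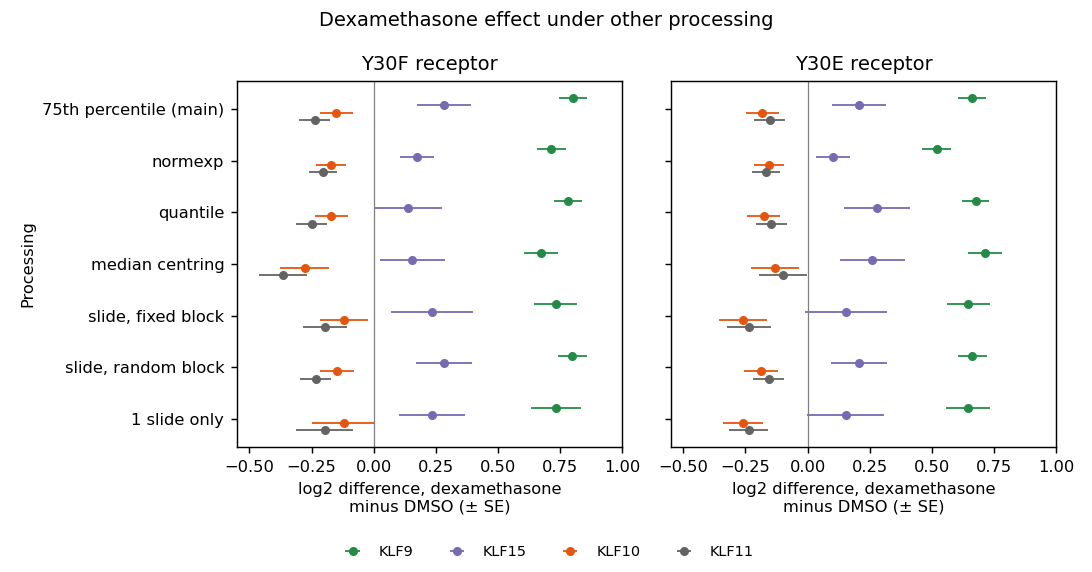
Dexamethasone effect (log2 difference ± SE) on KLF9, KLF15, KLF10 and KLF11 under the main processing and 6 alternatives, with the Y30F receptor on the left and the Y30E receptor on the right. The KLF9 points lie between 0.67 and 0.80 on the left and between 0.52 and 0.71 on the right, and the KLF10 and KLF11 points lie below 0 throughout.

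The directions of KLF9 and KLF15 (higher) and of KLF10 and KLF11 (lower) were the same in all alternatives run, with each receptor and averaged. For most alternatives this was fixed in advance where groups did not overlap (KLF9, KLF10 and KLF11 with both receptors, KLF15 with Y30F). There, leaving out or weighting arrays, a slide block, 1 slide only or another prior or threshold could not change the direction. The KLF9 difference ranged from 0.67 to 0.84 with Y30F and from 0.52 to 0.71 with Y30E. KLF9 passed in 28 of 29 alternatives with each receptor, the exception being the fits on 1 slide, and in all 27 for the averaged effect. Not all of these could have failed. They include the same intensities read from the series and a looser threshold on the same fit, and neither could lose the call. For a single receptor, leaving out an array of the other receptor could change the spread but not the KLF9 difference.

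Over the 12 arrays, the records whose pattern was most like that of KLF9 were NM_005461 (Pearson r = 0.985) and NM_020947 (r = 0.983). Of 19999 records compared, 192 had r over 0.9. NM_005461 differed by 1.05 and 0.79 (log2) with Y30F and Y30E, and NM_020947 by 0.37 and 0.38. Among the members, r with KLF9 was highest for KLF15 at 0.73 and lowest for KLF11 at -0.83 and KLF10 at -0.79. From the top of the 19999 records KLF15 was at rank 848, KLF10 at 19780 and KLF11 at 19859. The median r of all records was 0.10. These correlations describe arrays that share treatment and slide, and no test was made of them.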

How the data were processed

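Per the file headers, the intensity deposited for each spot was the 1-colour processed signal that Feature Extraction 12.0.0.7 (Agilent) computes after subtracting background. Spot flags and median signal and background intensity are other deposited columns, per the file headers. The series table held the same intensity at every spot (0 of 45015 differed). Control spots (1639) and outlier spots were left out. Each array's log2 intensity was reduced by its 75th percentile and spots of a probe averaged. Probes entered the fit (25570 of 41000) if, in some group, every array had 0.5 or more of the probe's spots flagged well above background, and 1 probe, the brightest, was used per record.

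Limma 3.58.1 (R 4.3.3) was fitted on 4 group means over 12 arrays (8 residual degrees of freedom) and 6 comparisons, with adjustment over all 20037 records. The fit of the Y30F dexamethasone effect was tested on simulated data with independent noise on each array. These data had no offsets between slides, so the fit was not tested against them. Intervals are 95%. Alternatives changed the background correction, scaling, filter, slide, replicate number, weights, prior, threshold and arrays.

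The rule names the members by record. The files do not pair other records with gene names, so marker lists for the cell line and pathway lists were not used, at most 2 other records are named, and no sequence is given. Members and lists were chosen with earlier results of these data known. Same-numbered replicates did not vary together (correlations of deviations from -0.13 to 0.11), so the numbers were not taken as pairs.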

Additional observations from a re-analysis of the deposited data

How the results depend on the processing

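Over 1680 values of single members under the alternatives, 1650 stayed on the same side of the threshold, 17 lost a call, 13 gained one and 0 reversed a called direction. Among the uncalled values 135 changed sign. Most values were uncalled in the main processing, and the alternatives include the series table, with the same intensities. With every probe as its own feature, the probe with the smallest p stood for each member in this tally. The count of called members for the averaged dexamethasone effect, 2 in the main processing, was 1 with median centring, no filter, slide as a fixed block, a threshold of 0.01 or slide 2 left out (chosen after the data were seen), and KLF9 was the gene called in each. It ranged from 1 to 3 when 1 array was left out. The count with Y30F, 1, ranged from 1 to 2 then, and that for the difference of effects, 0, from 0 to 1. On 1 slide only, with a single array on one side, it was 0 with Y30F and 0 with Y30E. Array weights gave 3 with Y30F (KLF2, KLF9 and KLF11) and 3 with Y30E (KLF4, KLF9 and KLF10). They gave 5 for the averaged effect (KLF2, KLF9, KLF10, KLF11 and KLF15) and 1 for the difference (KLF4). These fits called 952, 2960, 1564 and 1729 records. The causes were not tested. With the replicate number as a block the counts were 1, 1, 2 and 0 in that order, and no member's call changed. Median centring moved the median of all records by -0.13 with Y30F and 0.053 with Y30E. The normalised signals of KLF4 and KLF15 lay between 35.5 and 91.0, where normexp with its offset of 50 shrinks differences by its construction.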
